A study of Gallus gallus with 4 samples.

Results

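Of the 212 rows of the authors' deposited table, 41 belong to genes that were higher in cranial than in trunk neural crest cells and were also well expressed in the trunk. They were chosen by their trunk value, which had to be at least 10 FPKM (sequenced fragments of a transcript scaled by its length and by the depth of the library). At or above that limit there are 48 rows per the authors' deposited table, of which 7 were left out by name (COL4A5, LAMB1, NID2, TNC, CDON, SSBP3 and the row that combines HESX1 and IL17RD). LAMB1 and SSBP3 were recognised under their protein entry names. The choice used the measured trunk level, so the trunk levels, the folds and the q-values of the members are given as a description, with no test. Of the 41 members, 21 could be given a gene symbol and 20 could not.

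The samples were neural crest cells of chick embryos electroporated with an enhancer of FoxD3, dissociated from the dissected region and sorted as living GFP-positive cells. The cranial group, 2 libraries (replicates A and B), carried the NC1 enhancer and was taken at Hamburger-Hamilton stage HH9+. The trunk group, 2 libraries (replicates A and C), carried the NC2 enhancer and was taken at stage HH14. Position along the body, stage and enhancer differ together and cannot be told apart, cells entered a group by their GFP signal, and the labels do not say whether libraries came from separate embryo pools. The table gives 1 value per group, so the spread between libraries and the read depth are unknown and no SD or n stands beside the values. In sorted pools, fewer cells expressing a gene and less of its RNA per cell cannot be told apart.

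Neural crest cells leave the dorsal neural tube by losing epithelial contacts, reorganising actin and myosin, and migrating through extracellular matrix. In the head they form cartilage and bone as well as neurons, glia and pigment cells, whereas trunk crest normally forms no skeleton. Genes that serve every cell, such as those for transcription, protein turnover and vesicle traffic, are used at both levels. For such genes, a comparison of the 2 groups measures a shift in the pooled amount, whatever the share of cells expressing them.

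The members were higher in cranial cells by 1.41-fold to 11.7-fold per the authors' deposited table, with a median of 1.97-fold. At least 2-fold differences were given for 19 of the 41 members, where the share over all rows of the authors' deposited table is 81.6%. A difference of at least 4-fold was given for 5 members, against 54.2% of all rows of the authors' deposited table, and a difference of at least 8-fold for 1 member, against 26.9%. Because the trunk value that chose the members is the denominator of the fold, nothing is read from those shares. All 41 members were marked as significant by the authors, as is 100% of the deposited table, which holds no row higher in trunk. The largest fold, for a protein accession without a symbol, stood apart from the others, and the next was 5.24-fold per the authors' deposited table.

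**Figure D1:**
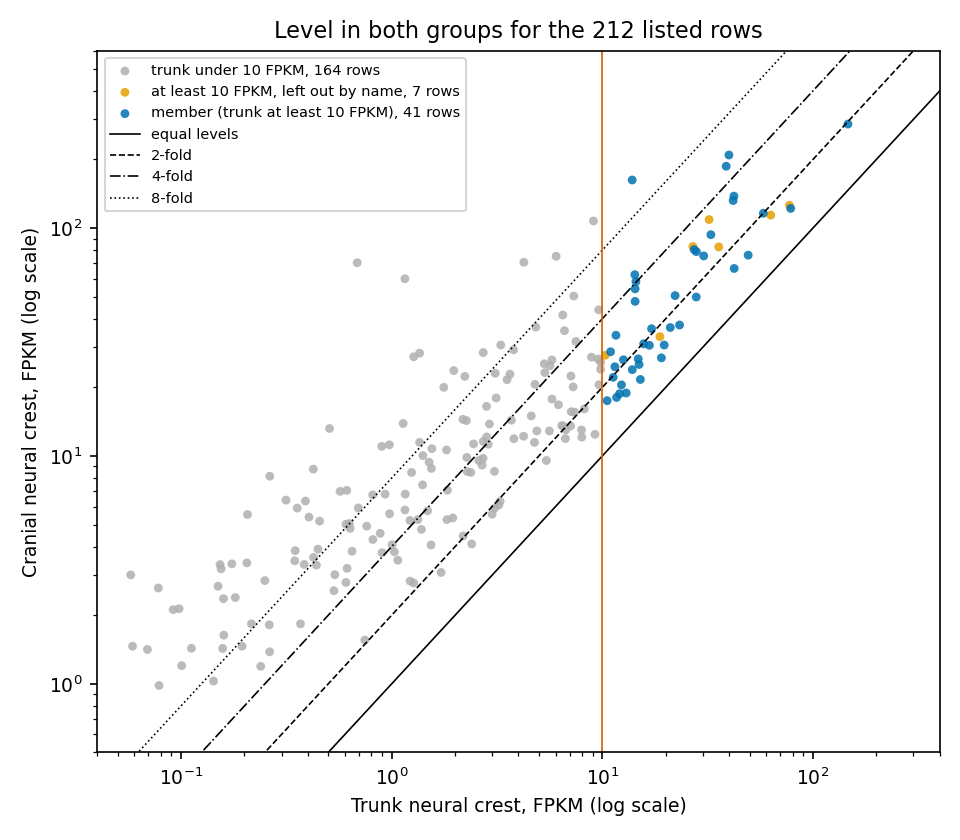
Cranial level (vertical axis) against trunk level (horizontal axis), both in FPKM on log scales, for all 212 rows of the authors' deposited table. Points are rows, coloured by set, the vertical line marks the limit of 10 FPKM in trunk, and the sloping lines mark equal levels and 2-, 4- and 8-fold. The 41 members mostly lie between the line of equal levels and the 4-fold line, with 1 member above the 8-fold line.

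Among the named members, 4 genes belong to the machinery of gene expression, and their folds ran from 1.41 to 2.097 per the authors' deposited table. MRPL13, a protein of the large subunit of the mitochondrial ribosome, had the highest level of the named members in both groups, at 116 FPKM in cranial cells and 58.1 FPKM in trunk cells per the authors' deposited table (1.998-fold, q = 0.0240). POLR2K, a small subunit shared by the nuclear RNA polymerases, was listed at 26.4 against 12.6 FPKM per the authors' deposited table (2.097-fold, q = 0.000352). POLR1A is the largest subunit of RNA polymerase I, which makes ribosomal RNA, and in humans variants of this gene cause a disorder of the facial skeleton. It had the smallest fold of all 41 members, at 26.9 FPKM in cranial cells and 19.1 FPKM in trunk cells per the authors' deposited table (1.41-fold, log2 0.50, implied SE 0.16, q = 0.0485). The implied SE here and below is the log2 fold divided by the authors' test score, so it rests on the error model of the authors, and how that model used the libraries is not stated. PAXBP1, listed under the older name C21orf66, encodes a protein that binds PAX3 and PAX7 in mouse muscle progenitors, and it stood at 18.1 against 11.7 FPKM per the authors' deposited table (1.54-fold, q = 0.000498). Both polymerase subunits were thus listed as higher in cranial cells, POLR2K past and POLR1A short of 2-fold. POLR2K (log2 1.07, implied SE 0.23) lay within 1 implied SE of 2-fold.

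The ubiquitin system tags proteins for degradation or sorting. Against 81.6% of all rows at least 2-fold higher in cranial cells, 3 of its 5 named members were so, per the authors' deposited table. ENC1, a BTB-kelch protein of the early ectoderm and nervous system that binds actin and acts as an adaptor of ubiquitin ligases, had the largest fold of these, at 58.2 against 14.4 FPKM per the authors' deposited table (4.03-fold, log2 2.01, implied SE 0.59, q = 0.0295). UBFD1, which carries a ubiquitin-like domain, was listed at 33.9 FPKM in cranial cells and 11.6 FPKM in trunk cells per the authors' deposited table (2.92-fold, q = 0.0367). The ubiquitin-conjugating enzyme UBE2E1 stood at 24.6 against 11.5 FPKM per the authors' deposited table (2.15-fold, q = 0.0192). The implied SE of these log2 folds was 0.59, 0.47 and 0.31, wider than for most named members. FEM1B, which selects substrates for a cullin ubiquitin ligase, was at 22.1 against 11.3 FPKM per the authors' deposited table (1.97-fold, q = 0.0354). JOSD1, a deubiquitinating enzyme, had the smallest fold of the 5 but the smallest q, at 25.2 against 14.9 FPKM per the authors' deposited table (1.69-fold, log2 0.75, implied SE 0.14, q = 1.19e-05). The trunk levels of the 5 genes lay close together, from 11.3 to 14.9 FPKM per the authors' deposited table, so their order in fold is the order of their cranial levels except for JOSD1.

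Membrane and ciliary traffic was represented by 4 named members. Against 81.6% of all rows at least 2-fold higher in cranial cells, 1 of these 4 was so, per the authors' deposited table. RAB2A, a small GTPase of the route between endoplasmic reticulum and Golgi, was the most abundant of them, at 66.5 FPKM in cranial cells and 42.3 FPKM in trunk cells per the authors' deposited table (1.57-fold, log2 0.65, implied SE 0.14, q = 0.000290). ERGIC1, a membrane protein that cycles through the compartment between the same organelles, had a similar fold at a lower level, 21.7 against 15.2 FPKM per the authors' deposited table (1.43-fold, q = 0.0104). BMP2K, a kinase named for its induction by a bone morphogenetic protein in mouse bone precursor cells and active in clathrin-coated vesicle formation, was listed at 36.2 against 17.1 FPKM per the authors' deposited table (2.11-fold, q = 0.000202). IFT46, listed as C11orf60, is part of the intraflagellar transport complex that builds cilia, and it stood at 18.8 against 12.1 FPKM per the authors' deposited table (1.55-fold, q = 0.0387). The log2 folds of RAB2A and IFT46 lay within 1 implied SE of each other.

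**Figure D2:**
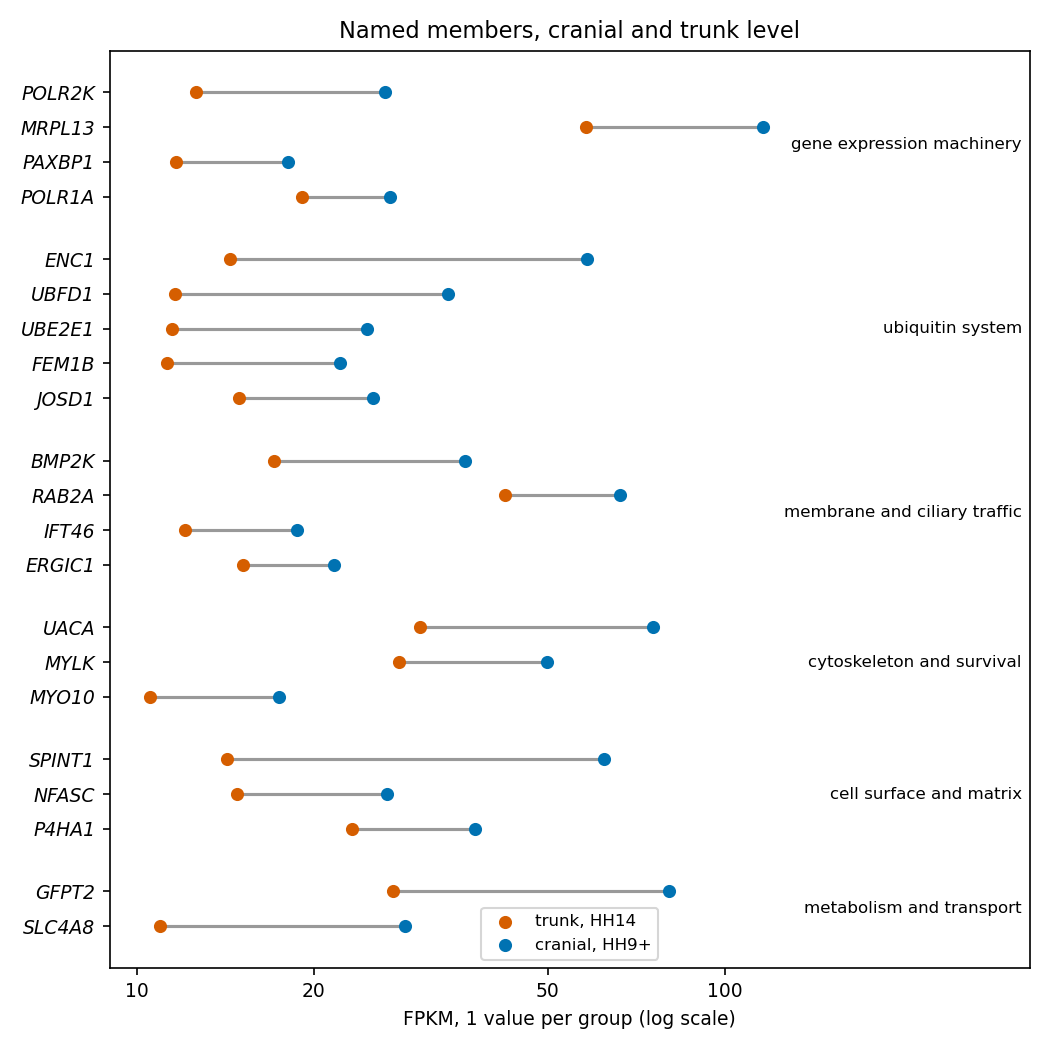
Level in FPKM (horizontal axis, log scale) of the 21 named members in the trunk group (orange) and the cranial group (blue), 1 value per group from the authors' deposited table, with genes grouped by role. Every blue point lies to the right of its orange point, and MRPL13 is highest in both groups at 116 and 58.1 FPKM.

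Among the named members, 3 act on the cytoskeleton or in cell survival. UACA, a protein with ankyrin repeats and a coiled coil that has been linked to apoptosis in mammals, had the largest fold of these, at 75.5 FPKM in cranial cells and 30.3 FPKM in trunk cells per the authors' deposited table (2.49-fold, log2 1.32, implied SE 0.27, q = 0.000144). MYLK, the kinase that phosphorylates myosin light chain and so sets actomyosin contraction, stood at 49.8 against 27.9 FPKM per the authors' deposited table (1.78-fold, log2 0.84, implied SE 0.15, q = 2.47e-06). MYO10 is the myosin of filopodia tips and is needed for cranial crest migration in Xenopus. It had the lowest level of all members in both groups, at 17.5 against 10.5 FPKM per the authors' deposited table (1.66-fold, q = 0.00176). The log2 folds of MYLK and MYO10 lay within 1 implied SE of each other, at different levels.

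Another 3 named members act at the cell surface or on the matrix. SPINT1, a membrane-bound inhibitor of serine proteases such as matriptase and the hepatocyte growth factor activator, had the largest fold of the named members, at 62.4 FPKM in cranial cells and 14.3 FPKM in trunk cells per the authors' deposited table (4.38-fold, log2 2.13, implied SE 0.37, q = 2.59e-06). Its locus is chromosome 5 from 26403621 to 26419755 per the authors' deposited table. SPINT1 and ENC1 were the 2 of 21 named members at least 4-fold higher in cranial cells, against 54.2% of all rows per the authors' deposited table. Their log2 folds differed by less than either implied SE. NFASC, neurofascin, an adhesion molecule of the L1 family that organises axon segments, was listed at 26.7 against 14.8 FPKM per the authors' deposited table (1.80-fold, q = 4.38e-06). P4HA1, the catalytic subunit of the prolyl hydroxylase that stabilises collagen, stood at 37.5 against 23.3 FPKM per the authors' deposited table (1.61-fold, log2 0.69, implied SE 0.16, q = 0.000984). P4HA1 modifies collagens inside the cell before they are secreted.

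Metabolism and transport had 2 named members. Both were at least 2-fold higher in cranial cells, as were 81.6% of all rows, per the authors' deposited table. GFPT2, which performs the first and rate-limiting step of hexosamine synthesis and so supplies the sugars of glycoproteins and proteoglycans, was listed at 80.4 FPKM in cranial cells and 27.3 FPKM in trunk cells per the authors' deposited table (2.95-fold, log2 1.56, implied SE 0.19). Its q of 2.16e-13 is the smallest of the members per the authors' deposited table, equal to that of 1 unnamed member. SLC4A8, an exchanger of sodium, bicarbonate and chloride that regulates intracellular pH, was matched through its gene number and stood at 28.7 against 10.9 FPKM per the authors' deposited table (2.62-fold, q = 0.00795). Among the named members only MRPL13 had a higher cranial level than GFPT2.

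**Figure D3:**
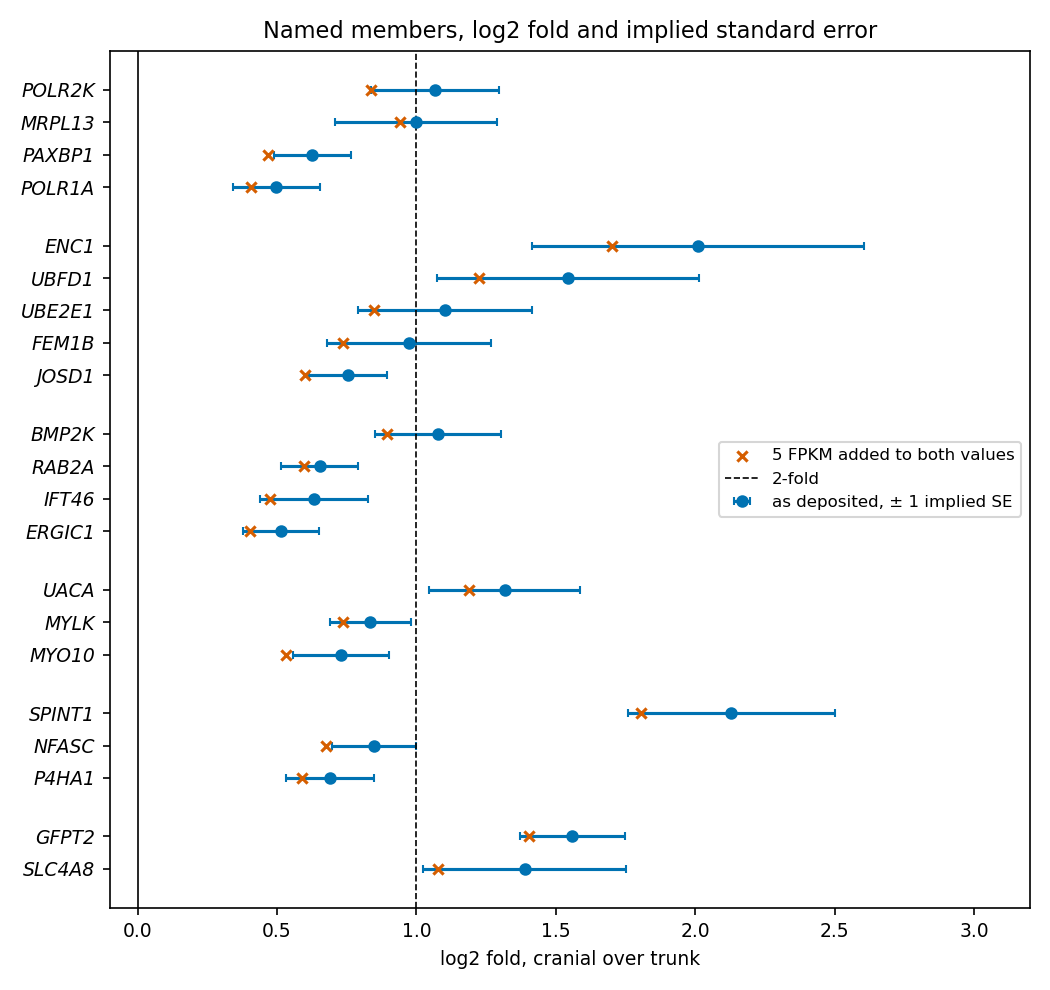
Log2 fold of cranial over trunk (horizontal axis) for the 21 named members, in the same order as the plot of their levels. Blue points are the values of the authors' deposited table with bars of 1 implied SE, orange crosses are the values with 5 FPKM added to both groups, and the dashed line marks 2-fold. SPINT1 (2.13) and ENC1 (2.01) lie farthest to the right and POLR1A (0.50) farthest to the left.

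The 20 members without a symbol, 18 of them under a protein accession, included most of the members' abundant transcripts. Of the 8 members with a cranial level of at least 100 FPKM per the authors' deposited table, 7 had no symbol. Over all rows of that table, 38.7% were given no symbol, some of them listed under a name, such as FAM5B, that was not matched. Among the rows left out by name, 3 with a symbol (COL4A5, LAMB1 and SSBP3) also reached 100 FPKM in cranial cells. The count of 7 in 8 thus rests in part on the rule. The members without a symbol had a median cranial level of 65.1 FPKM per the authors' deposited table, against 28.7 FPKM for the named members. Q5ZKS1_CHICK had the highest level of the whole table in both groups, 286 FPKM in cranial cells and 147 FPKM in trunk cells per the authors' deposited table (1.95-fold, q = 0.0148), and so a fold close to the members' median. ENSGALG00000022534, on an unplaced sequence, was listed at 209 against 39.9 FPKM per the authors' deposited table (5.24-fold, log2 2.39, implied SE 0.69, q = 0.0227). The largest fold of all members, named after its value was seen, belonged to Q5ZMG2_CHICK on chromosome 9 from 15031940 to 15042598, at 163 FPKM in cranial cells and 13.9 FPKM in trunk cells per the authors' deposited table (11.7-fold, log2 3.55, implied SE 0.60, q = 9.61e-07). Without it, the median fold of the other 40 members was 1.97 per the authors' deposited table. The remaining 17 members without a symbol had folds from 1.46 to 4.82 per the authors' deposited table. The highest of those 17 folds is for a row whose locus spans 249 bases, 187 against 38.7 FPKM per the authors' deposited table, and a level scaled by so short a length is uncertain.

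Set against the 164 rows under 10 FPKM in trunk, the members had smaller folds and larger differences in level. A higher trunk level lowers the ratio and, at a given fold, widens the difference. Both contrasts thus follow at least in part from the trunk limit and were not tested. The median fold of those rows was 5.71 per the authors' deposited table, with a range from 1.35 to 103, and 150 of the 164 were at least 2-fold higher in cranial cells. The cranial level minus the trunk level had a median of 21.9 FPKM over the members and of 6.01 FPKM over the rows under the limit, computed from the authors' deposited table. This difference in FPKM ranged from 5.91 to 169 over the members, computed from the authors' deposited table, with ENSGALG00000022534 at the top. The test scores had medians of 4.10 for the members and 4.06 for the rows under the limit per the authors' deposited table. All listed rows had passed the same significance call, with lowest scores of 3.18 and 3.19, so nothing is read from their likeness. The implied SE of the log2 fold was smaller for the members, with a median of 0.22 against 0.60 from the authors' deposited table. The implied SE is the log2 fold divided by the score, so with like scores its smaller median restates the smaller folds. A q under 0.001 was given for 17 of the 41 members, and for 38.7% of all rows, per the authors' deposited table. Adding a constant shrinks the folds of rows with low trunk levels most, by construction. After 5 FPKM was added to each value taken from the authors' deposited table, the median log2 fold was 0.84 for the members and 0.84 for the rows under the limit, in place of 0.98 and 2.51.

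**Figure D4:**
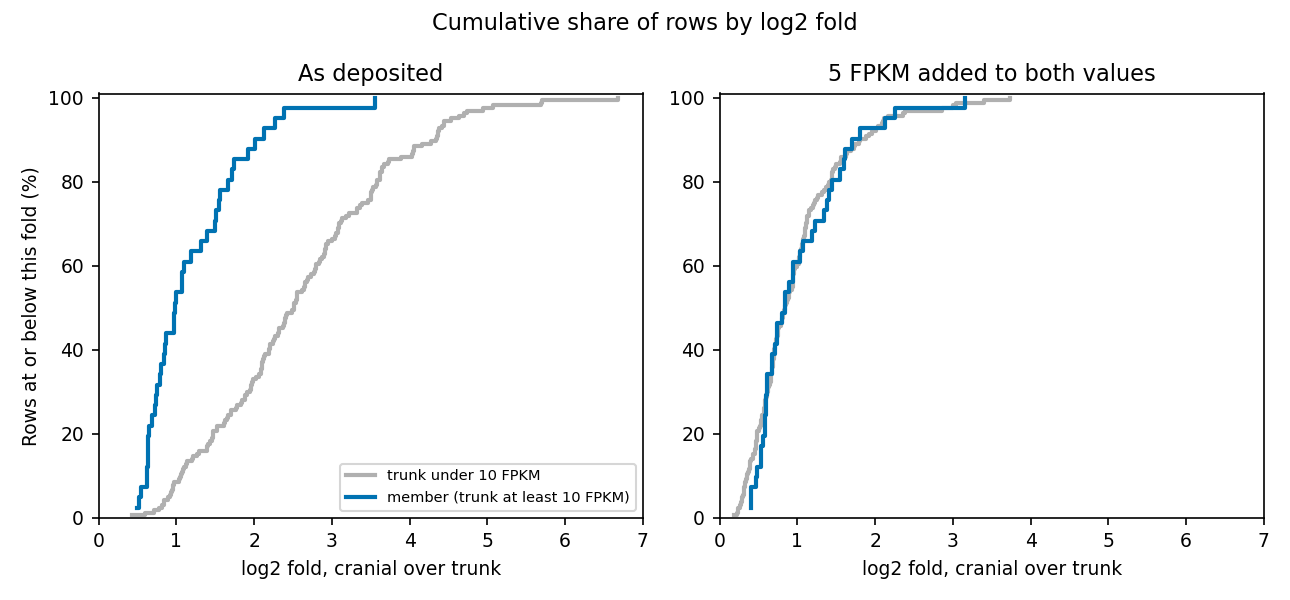
Cumulative share of rows in percent (vertical axis) by log2 fold of cranial over trunk (horizontal axis), for the 41 members (blue) and the 164 rows under 10 FPKM in trunk (grey) of the authors' deposited table. The left panel uses the values as deposited, where the medians are 0.98 and 2.51, and the right panel adds 5 FPKM to both values, where both medians are 0.84, since the added constant lowers the grey folds most.

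The lowest cranial level of a member was 17.5 FPKM, and 36 rows under the trunk limit also reached that level per the authors' deposited table. Their cranial levels were lower than those of the members, with a median of 26.5 against 37.5 FPKM per the authors' deposited table. The folds of these 36 rows ran from 2.13 to 103 with a median of 6.20 per the authors' deposited table. The trunk limit sets a lowest fold that such rows can have. With 5 FPKM added, the median log2 fold of the 36 rows was 1.77, computed from the authors' deposited table, against 0.84 for the members. Both levels were used to choose those 36 rows, which bounds their folds from below with or without the constant. Nothing is read from that contrast. Within the members, the 24 with trunk levels from 10 to under 20 FPKM had a median fold of 1.90 per the authors' deposited table. The 14 members from 20 to under 50 FPKM had a median of 2.65 and the 3 at or above 50 FPKM a median of 1.95 per the authors' deposited table. The median folds of members thus did not fall steadily across these bins, the last of which held 3 rows. The bins divide the denominator of the fold, so no trend with trunk level was tested.

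The limit of 10 FPKM cut through rows of like trunk level. Just below it, from 9.24 to 9.82 FPKM in trunk, folds ran from 1.35 to 4.55 per the authors' deposited table. Just inside it, MYO10 at 10.5 FPKM in trunk was followed by SLC4A8 at 10.9 FPKM per the authors' deposited table. Just outside lay PLPP1, a lipid phosphate phosphatase listed as PPAP2A, at 25.8 against 9.82 FPKM per the authors' deposited table (2.62-fold). STRIP2, a component of a phosphatase complex listed as FAM40B, followed at 20.5 against 9.64 FPKM per the authors' deposited table (2.13-fold). CHMP2A, a subunit of the membrane-cutting ESCRT machinery, shared its row with a second identifier. That row stood at 26.6 against 9.56 FPKM per the authors' deposited table (2.78-fold).

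Members were sought in 13 gene lists defined by the first letters of their symbols, which miss genes of the same function under other names. Only rows given a symbol could match a list or a marker, 21 of the 41 members and 103 of the 164 rows under the limit. Members without a symbol, which include most of the abundant ones, were thus not searched. In 6 lists there was 1 member each, namely mitochondrial translation (MRPL13), ubiquitin and proteasome (UBE2E1), membrane traffic (RAB2A), cytoskeleton and motors (MYO10), metabolism (GFPT2) and transporters (SLC4A8). Of these 6 lists, the rows under the limit held 3 genes of the ubiquitin list, 4 of the cytoskeleton list, 2 transporters, 1 gene each of traffic and metabolism, and 0 of mitochondrial translation. The other 7 lists had 0 members by these letters. That count is not a count of function, since splicing regulators such as ESRP1 and transcription regulators such as RFX5 are among the rows under the limit and were not matched by the letters. Of 38 markers of neural crest and of other cell types, 0 were among the 21 members given a symbol. Another 3 (SOX8, CDH1 and ESRP1) were among the 103 rows under the limit given a symbol. Counts this small are not read as a difference between the sets. Genes outside the table have no value, so these counts say nothing about their levels.

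The members' loci lay on 20 chromosomes or other sequences, with 7 members each on chromosomes 1 and 2 and 5 on chromosome 4, which hold 31, 19 and 17 of all rows per the authors' deposited table. None of the 41 shared its locus with another row. Over all 212 rows the share was 4.72%, from 10 rows under the limit, per the authors' deposited table. With so low a share, nothing is read from its absence among the members. FEM1B and UACA, on chromosome 10, were 463 kb apart, and RAB2A lay 915 kb from an unnamed member on chromosome 2, the 2 pairs of members within 1 Mb per the authors' deposited table. Within 250 kb of another listed row that is not a member lay 6 members, the closest being UBFD1, 41.2 kb from SCNN1B, an epithelial sodium channel subunit, on chromosome 14 per the authors' deposited table. The median locus spanned 21577 bases for the members and 24585 bases for the rows under the limit per the authors' deposited table. The widest locus of a member was that of UBE2E1, at 320000 bases per the authors' deposited table, and the labels do not say how reads within such a locus were assigned.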

How the data were processed

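RNA of 4 libraries was amplified as cDNA before single-end sequencing, per the labels' protocols. Per the submitters' processing notes the tools included TopHat, Cufflinks and Cuffdiff 2.1, and the assembly was galGal4. The authors deposited 1 table of 212 rows, with 1 value per group. That value is read here as FPKM, scaled by transcript length and depth, because Cuffdiff, named by the authors, writes that unit. The file headers say only "value" and the name of the group. That both libraries of a group entered its value is an assumption. The deposited log2 fold is trunk over cranial and was turned round. It equalled the ratio of the values within 0.0001 in all 212 rows. The deposited test score was used with the fold to give an implied SE, because a normal two-sided p from the score matched the deposited p-value to 1% in all 193 rows with p of at least 1e-10. The headers do not define the score, so the SE is conditional on that reading.

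Coordinates are printed as the table writes them, and their build is not settled, because names such as chrUn_random belong to an earlier assembly than galGal4. Symbols came from the table and the RefSeq gene table of assembly GRCg7b. Of the 21 named members, 14 were symbols, 4 began an entry name, 1 came from a gene number and 2 from hand translation. Every member with a symbol was named, plus the 2 unnamed members highest in cranial cells and the 3 named rows nearest below the limit. Q5ZMG2_CHICK was named outside this rule, after its value was seen, as were RFX5, ESRP1 and SCNN1B. Members, lists and role groups were chosen with earlier results of these data known, and 5 symbols that matched a list by letters only were taken out. No sequences were used here. Depth is unknown. The arithmetic was tested on simulated data. Python 3.11.15 with pandas 2.3.3 was used.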

Additional observations from a re-analysis of the deposited data

How the results depend on the processing

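All listed rows are higher in cranial cells, so no alternative could turn a direction. The number of members became 73 with a trunk limit of 5 FPKM, 17 with 20 FPKM, 22 at a q under 0.01 and 21 without unnamed rows. The 19 of 41 members at least 2-fold higher became 43 of 73, 9 of 17, 11 of 22 and 9 of 21. Over all 212 rows the share at least 2-fold higher was 81.6%. Each of these limits changes the number of rows by construction. The members' median log2 fold of 0.98 stayed between 0.84 and 1.19 under all alternatives run. The median of the rows under the limit fell from 2.51 to 1.63 with 1 FPKM added to both values and to 0.84 with 5 FPKM. Among the 21 named members, 0 moved by over 1 implied SE with 1 FPKM added and 5 with 5 FPKM added, all towards 0. Keeping the 7 rows left out by name gave 48 members, and matching those names letter for letter gave 43. That match and the limit to named rows were chosen after seeing the data. No paired analysis was possible because the values analysed here are 1 per group. Leaving out a library was not run for the same reason.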
